A study of Homo sapiens with 6 samples.

Results

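The genes KIT, FLT3, CSF1R, INSR, IGF1R, FGFR1, TEK, TIE1 and AXL encode receptor tyrosine kinases, and their RNA was followed in Kasumi-1, a myeloblast line from acute myeloid leukemia in which the AML1-ETO (RUNX1-RUNX1T1) fusion and an activating KIT mutation are present. They were chosen by name as 9 of the 62016 genes listed in each of 3 expression tables, and each name matched 1 row. RNA was taken 4 days after infection with pLKO virus, made in 293T cells, for JMJD1C shRNA63, JMJD1C shRNA95 or a control shRNA, with 2 RNA sequencing libraries in each of the 3 groups, and the 2 JMJD1C tables give 1 FPKM value per group (fragments scaled to transcript length and library size). The remaining table of the authors sets AML1-ETO shRNA against a control shRNA, 1 library per group, from another published series, whose cells are not named in the labels. By their labels the 3 groups differ in the hairpin alone. No label says whether the groups were handled together or whether the 2 libraries in a group are separate cultures.

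Receptor tyrosine kinases are membrane proteins that pair up when a ligand binds, phosphorylate each other on tyrosine and so recruit adaptors that start RAS-ERK, PI3K-AKT and STAT signalling. KIT, FLT3 and CSF1R belong to one structural class with immunoglobulin-like outer domains and a split kinase domain. KIT marks progenitors and mast cells, FLT3 early progenitors and CSF1R the monocyte and macrophage lineage, and KIT is often mutated in leukemia with AML1-ETO.

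JMJD1C, the gene targeted by both hairpins and a member of the KDM3 family, stood at 13.7 FPKM with shRNA63 and 30.4 FPKM in the control, and at 25.1 FPKM in the libraries labelled shRNA95 and 29.4 FPKM in the control. The first difference was called in the authors' deposited table (q = 0.00214) and the second was not (q = 0.938), so a direction given for the libraries labelled shRNA95 rests on their label. A gene was called where the authors' q-value, adjusted over all tested genes of a table, was under 0.05. The smallest p from the authors' test was 5e-05, at q = 0.00214 with shRNA63 and 0.00216 in the libraries labelled shRNA95. Genes at these q-values cannot be ranked by them. Myeloblast genes were abundant: 8 of them summed to 12260 FPKM with shRNA63 and 4881 FPKM in the control, and to 6582 FPKM in the libraries labelled shRNA95 and 4734 FPKM in the control. Of the 7 tested, CD33, ELANE and PRTN3 (a surface marker and the granule proteases elastase and proteinase 3) were called higher with shRNA63. With this hairpin 2.29% of all tested genes were called higher. ELANE was at 3744 FPKM against 1143 FPKM in the control. CD34, a progenitor marker, and ANPEP, a myeloid surface peptidase, were called higher in the libraries labelled shRNA95 (2.59% of all tested genes). There CD34 was at 249 FPKM against 146 FPKM in the control. With shRNA63 CD34 was at 103 FPKM and in the control at 151 FPKM, without a call. Among markers of other lineages, ITGA2B (megakaryocytes), CD3E and CD79A (lymphocytes) were called lower with shRNA63 (2.83% of all tested genes). KLF1 (erythroid cells) was called lower in the libraries labelled shRNA95 (1.82%). All were at 2.68 FPKM or less in every group. The part of such shifts in the receptor values was not tested. MPO, the granule enzyme myeloperoxidase and 1 of the 8 myeloblast genes, is listed at 0 with a status of too much data for an estimate. The sums of the 8 genes therefore leave MPO out, and a listed 0 is not always an absent RNA.

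The stretches of 250 bases before the transcript starts of KIT, TIE1 and CSF1R are shown because these are the members with a call in a table. They come from RefSeq on build GRCh38.p14, where 8 of the 9 genes were matched by symbol and FGFR1 was not used here, and each is written 5′ to 3′ on the strand of the gene. Capitals mark TGTGGT, a core bound by RUNX1, and GAGGAA, a core bound by PU.1, or their reverse complements ACCACA and TTCCTC. KIT is shown at chr4:54657707-54657956 (plus strand), TIE1 at chr1:43300732-43300981 (plus strand) and CSF1R at chr5:150086555-150086804 (minus strand), the downstream of the 2 starts listed for it.
KIT: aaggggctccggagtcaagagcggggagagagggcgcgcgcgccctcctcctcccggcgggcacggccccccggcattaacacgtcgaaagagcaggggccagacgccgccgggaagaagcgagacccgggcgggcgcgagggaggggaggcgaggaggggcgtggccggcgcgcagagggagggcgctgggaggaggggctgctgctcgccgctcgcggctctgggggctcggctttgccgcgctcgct
TIE1: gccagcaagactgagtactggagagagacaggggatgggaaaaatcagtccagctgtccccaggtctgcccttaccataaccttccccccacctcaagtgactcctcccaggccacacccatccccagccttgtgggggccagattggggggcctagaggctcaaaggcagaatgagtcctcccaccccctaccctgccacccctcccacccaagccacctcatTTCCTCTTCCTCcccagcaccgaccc
CSF1R: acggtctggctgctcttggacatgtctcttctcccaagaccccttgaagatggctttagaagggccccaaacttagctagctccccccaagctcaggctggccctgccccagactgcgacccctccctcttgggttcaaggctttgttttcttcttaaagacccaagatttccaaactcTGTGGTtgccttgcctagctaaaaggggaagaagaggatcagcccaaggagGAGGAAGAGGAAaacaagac

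The CSF1R stretch held 1 RUNX core, 71 bases before the start, and 2 adjoining PU.1 cores, 20 and 14 bases before it, while the stretch before its other listed start held neither core. The TIE1 stretch held 2 adjoining PU.1 cores and no RUNX core, and the KIT stretch, with 76.4% G and C, held neither. The RUNX core occurred in 11% and the PU.1 core in 23.6% of 35116 promoter stretches of this length. AGATAA, a core bound by GATA factors, was also searched on both strands; it occurred in 9.17% of the stretches and in none of the 3 printed here. These are matches of letters and not sites of binding.

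KIT was by far the most abundant of the 9 transcripts, and TIE1 was the member with the largest called fold change with shRNA63. With shRNA63, 3 of the 7 tested members were called, where 5.12% of 18271 tested genes were called. KIT and TIE1 were the members called lower (2.83% of tested genes) and CSF1R the member called higher (2.29%), and the same 3 had an unadjusted p under 0.05 (13.4%). In the libraries labelled shRNA95, 0 of 7 were called, where 4.4% of 18006 tested genes were called by Cuffdiff (2.59% higher and 1.82% lower). There KIT, TIE1 and CSF1R, 3 of the 7, had an unadjusted p under 0.05 (12.3% of all tested genes). TEK and AXL were not tested in any table. Of the 9 members, 6 reached 1 FPKM in at least 1 group for shRNA63 and 5 for the libraries labelled shRNA95.

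**Figure D1:**
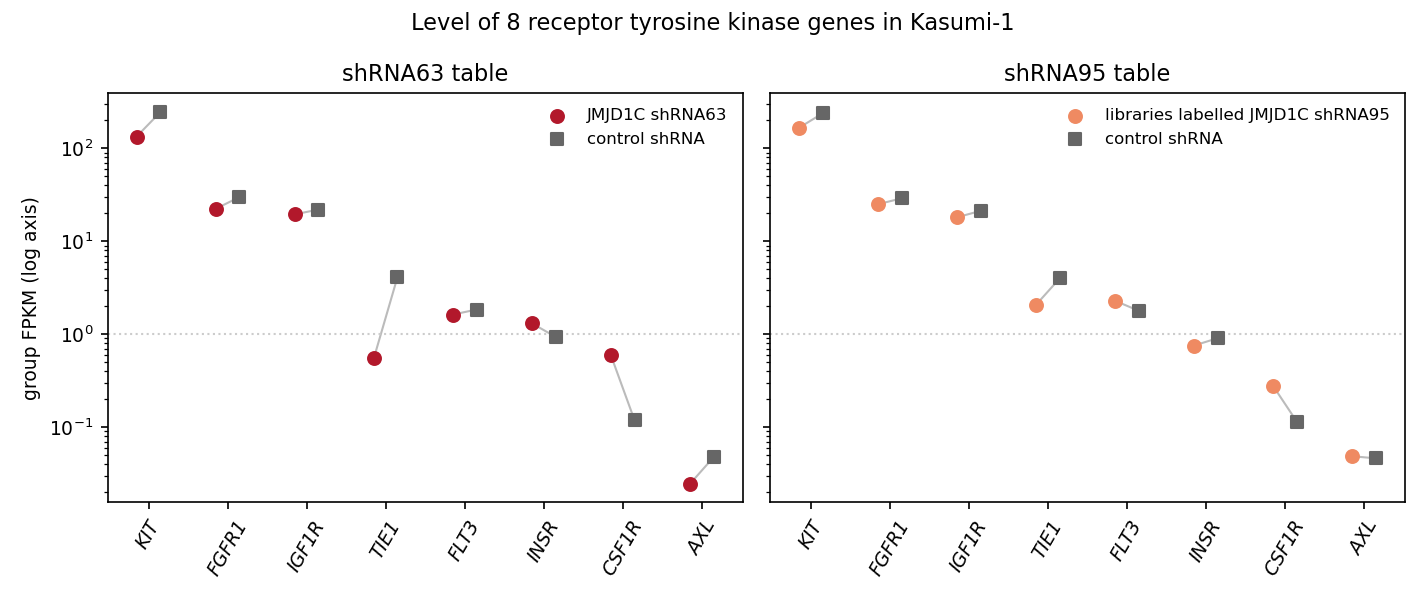
Group FPKM on a log axis for 8 members in the shRNA63 table (left) and the shRNA95 table (right); circles are the JMJD1C shRNA groups, squares the control shRNA group, each 1 value that the authors made from 2 libraries, and the dotted line marks 1 FPKM. KIT lies above all others at 134 to 245 FPKM, TIE1 drops to 0.549 FPKM with shRNA63 against 4.12 FPKM in the control, and TEK, listed at 0 in all groups, cannot be drawn.

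KIT (ENSG00000157404, chromosome 4, 55524085 to 55606881 in hg19, with no other gene in its locus) encodes the receptor for stem cell factor. It had 134 FPKM with shRNA63 and 245 FPKM in the control, and 166 FPKM in the libraries labelled shRNA95 and 238 FPKM in the control. The control is the same pair of libraries in both tables, scaled separately. Both shRNA values therefore lay below their control, the shRNA63 value at 54.6% of it (95% interval 38.4% to 77.7%) and the other at 69.9% (48.3% to 101%). The authors' deposited table gave KIT a log2 fold change of -0.87 (error 0.26, q = 0.00214) with shRNA63. In the libraries labelled shRNA95 the authors' deposited table gave -0.52 (error 0.27), with an unadjusted p of 0.0079 and q = 0.124, which was not called. The difference between the hairpins in the authors' log2 fold changes was -0.36 for KIT (error 0.38, 95% interval -1.09 to 0.38, unadjusted p = 0.344). It did not pass after adjustment over 17267 genes, of which 0.84% passed, and neither did that of any other tested member.

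KIT ranked 1080th among the tested genes by FPKM with shRNA63 and 538th in the control, and 953rd in the libraries labelled shRNA95 and 538th in the control. It was the most abundant of the 58 human receptor tyrosine kinases in every group. Its share of their summed FPKM was 38.9% with shRNA63 and 49.9% in the control, and 45.4% in the libraries labelled shRNA95 and 49.9% in the control. In bulk RNA, fewer cells that express a gene and less of its RNA per cell cannot be told apart.

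KIT is also a marker of mast cells. Of the other 7 mast cell markers 2 were tested, the tryptase genes TPSAB1 and TPSB2. Both were called lower in both JMJD1C tables (2.83% of all tested genes with shRNA63 and 1.82% in the libraries labelled shRNA95). The 7 genes summed to 3.94 FPKM with shRNA63 and 28.2 FPKM in the control, and to 4.60 FPKM in the libraries labelled shRNA95 and 27.4 FPKM in the control. TPSAB1 and TPSB2 are nearly the same in sequence, so their separate values are uncertain. Whether the KIT values in this line are linked to those of the other mast cell markers was not tested. CPA3, MS4A2, CMA1 and HDC, further mast cell genes, were at 0.158 FPKM or less in every group, and FCER1A was listed at 0. KITLG, which encodes the KIT ligand, was at 0.0998 FPKM with shRNA63 and 0.0285 FPKM in the control, under the level the authors tested.

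FLT3 (ENSG00000122025, chromosome 13, 28577411 to 28674729 in hg19), the receptor for FLT3 ligand, was present at low levels. It had 1.62 FPKM with shRNA63 and 1.84 FPKM in the control, and 2.29 FPKM in the libraries labelled shRNA95 and 1.79 FPKM in the control. The values straddled the control, and neither was called (q = 0.930 and q = 0.542 in the authors' deposited tables). The intervals of the log2 fold change ran from -0.78 to 0.42 with shRNA63 and from -0.23 to 0.94 in the libraries labelled shRNA95. FLT3LG, the gene of its ligand, had 2.64 FPKM with shRNA63 and 3.31 FPKM in the control, with an error of 8.76 on the log2 scale that leaves its change undetermined.

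CSF1R (ENSG00000182578, chromosome 5, 149432854 to 149492935 in hg19), the receptor for CSF1 and IL34, was barely detected in the control and was called higher with shRNA63. It had 0.593 FPKM with shRNA63 and 0.118 FPKM in the control, and 0.277 FPKM in the libraries labelled shRNA95 and 0.114 FPKM in the control. The authors' deposited table called it with shRNA63 at a log2 fold change of 2.33 (q = 0.0379), but the error of 1.24 gives an interval from -0.10 to 4.76 that includes no change. With the p-value taken from the authors' test statistic the adjusted p was 0.579, so this call rests on how p was derived. In the libraries labelled shRNA95 it was at 1.28 (error 1.35, q = 0.379) in the authors' deposited table, without a call. Its locus in the tables also holds CTB-13H5.1 and a Y_RNA, so reads of overlapping genes may be included.

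Of the 7 other monocyte markers, 4 were tested with shRNA63 and 5 in the libraries labelled shRNA95. LYZ, which encodes lysozyme, was called higher with shRNA63 (2.29% of all tested genes). LYZ and FCGR1A, an Fc receptor gene, were called higher in the libraries labelled shRNA95 (2.59%). The 7 genes summed to 71.3 FPKM with shRNA63 and 20.1 FPKM in the control, and to 115 FPKM in the libraries labelled shRNA95 and 19.5 FPKM in the control. LYZ alone had 59.0 FPKM with shRNA63 and 7.29 FPKM in the control. CD68, a macrophage gene in a locus with 15 other genes, had 7.56 FPKM with shRNA63 and 9.62 FPKM in the control. In the libraries labelled shRNA95 CD68 was at 35.1 FPKM and in the control at 9.33 FPKM, without a call (error 1.77). CD163, a scavenger receptor gene, had 0.491 FPKM with shRNA63 and 0.626 FPKM in the control. It was at 0.230 FPKM in the libraries labelled shRNA95 and 0.607 FPKM in the control, without a call. CD14, a defining gene of monocytes, was at 0.152 FPKM or less in every group. Whether the CSF1R values in this line are linked to those of the other monocyte markers was not tested.

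TIE1 and TEK form the Tie family of angiopoietin receptors, best known from endothelium, where TEK binds angiopoietins and TIE1 is its partner without a well-established ligand of its own. TIE1 (ENSG00000066056, chromosome 1, 43766664 to 43788779 in hg19, with no other gene in its locus) had 0.549 FPKM with shRNA63 and 4.12 FPKM in the control, and 2.07 FPKM in the libraries labelled shRNA95 and 3.99 FPKM in the control. It thus stood at 13.3% of control with shRNA63 (95% interval 5.95% to 29.8%) and at 51.9% in the libraries labelled shRNA95 (30.4% to 88.6%). The authors' deposited table called it lower with shRNA63, at a log2 fold change of -2.91 (error 0.59, q = 0.00214). In the libraries labelled shRNA95 the authors' deposited table gave -0.95 (error 0.39), with an unadjusted p of 0.00725 and q = 0.117, without a call. The difference between the hairpins in the authors' log2 fold changes was -1.96 for TIE1 (error 0.71, 95% interval -3.36 to -0.57, unadjusted p = 0.00583). TIE1 was the 1 member of 7 with an unadjusted p under 0.05 here (4.81% of all genes), and it did not pass over all genes (adjusted p = 0.312 from the authors' errors, 0.231 to 0.328 with other treatments of those errors). In a further setting, chosen after seeing the data, the errors of all tested members were lowered by the same factor for the shared control. The TIE1 error then went from 0.71 to 0.50 and the adjusted p was 0.00517. The control's own part of the errors is unknown, so this lowering is an assumption and the hairpin difference of TIE1 stays undecided.

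TEK (ENSG00000120156, chromosome 9, 27109139 to 27230173 in hg19) was listed at 0 in all groups of the JMJD1C tables. Other endothelial markers were also low: KDR, CDH5, CLDN5, EMCN and VWF were at 0.176 FPKM or less in every group, and PECAM1 and ROBO4 were listed at 0. ESAM, an adhesion molecule also found on blood progenitors and platelets, was the exception, at 18.5 FPKM with shRNA63 and 42.7 FPKM in the control, and at 22.3 FPKM in the libraries labelled shRNA95 and 41.4 FPKM in the control. It was called lower in both of the authors' deposited tables (q = 0.00214 and q = 0.00216). Of the angiopoietin genes, ANGPT1 was tested, with 0.182 FPKM with shRNA63 and 0.474 FPKM in the control, and was not called in either table.

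IGF1R (ENSG00000140443, chromosome 15, 99192200 to 99675798 in hg19), the IGF1 receptor, had 19.5 FPKM with shRNA63 and 21.9 FPKM in the control, and 18.1 FPKM in the libraries labelled shRNA95 and 21.2 FPKM in the control. INSR (ENSG00000171105, chromosome 19, 7112266 to 7294045), the insulin receptor, had 1.31 FPKM with shRNA63 and 0.936 FPKM in the control, and 0.755 FPKM in the libraries labelled shRNA95 and 0.907 FPKM in the control. Neither was called. The error of the IGF1R log2 fold change, 1.14 with shRNA63 and 1.12 in the libraries labelled shRNA95, lay far above the median of 0.34 for genes of 20 to 100 FPKM. Its interval with shRNA63 ran from -2.41 to 2.07, so even large changes could not have been seen. The IGF1R locus in the tables holds 6 further genes, among them SYNM, that of INSR holds 1 and that of FGFR1 holds 2.

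FGFR1 (ENSG00000077782, chromosome 8, 38268656 to 38326352 in hg19), a receptor of fibroblast growth factors, had 22.3 FPKM with shRNA63 and 29.9 FPKM in the control, and 25.02 FPKM in the libraries labelled shRNA95 and 28.96 FPKM in the control. It was not called, with log2 fold changes of -0.42 (error 0.66) and -0.21 (error 0.59) in the authors' deposited tables. AXL (ENSG00000167601, chromosome 19, 41725108 to 41767671), a TAM-family receptor for GAS6, was at 0.0245 FPKM with shRNA63 and 0.0476 FPKM in the control, and at 0.0487 FPKM in the libraries labelled shRNA95 and 0.0462 FPKM in the control. These values were too low for a test, and no fold is given. GAS6, its ligand gene, was at 0.606 FPKM with shRNA63 and 0.740 FPKM in the control.

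In the order of levels, KIT was 5.995 times FGFR1 with shRNA63 and 8.20 times FGFR1 in the control of that table. IGF1R came next after FGFR1 in every group. In the control TIE1 followed, ahead of FLT3, INSR and CSF1R, and with shRNA63 it was the lowest of the tested members, 23rd of the 58 receptors against 14th in the control. The tables give no error of a level within a group, so whether neighbours in this order differ beyond their spread was not tested.

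**Figure D2:**
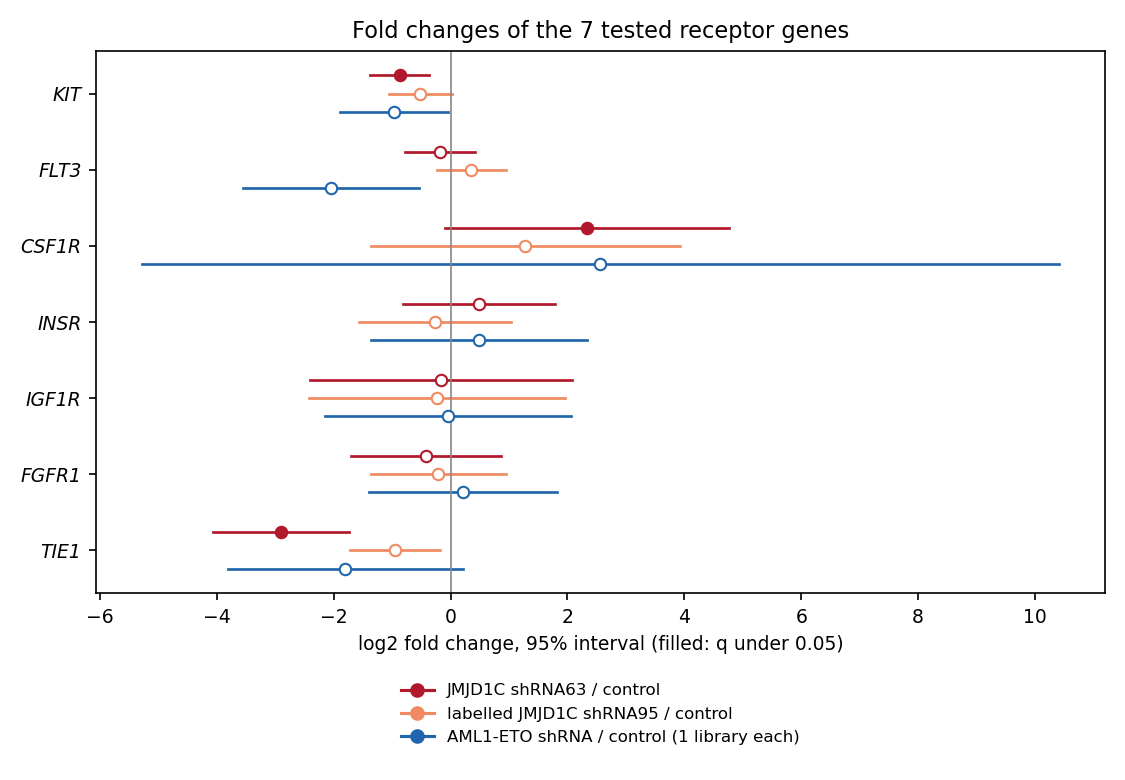
Log2 fold change over control (x axis) of the 7 tested members in the authors' deposited tables, with 95% intervals from errors derived from the authors' test statistic; filled points have q under 0.05. The filled points are KIT (-0.87), TIE1 (-2.91) and CSF1R (2.33) with shRNA63, and the CSF1R interval crosses 0; in the AML1-ETO comparison no point is filled.

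The AML1-ETO comparison asked which of these genes changed when the fusion itself was targeted; with 1 library a group there are no replicates, and the test compares those libraries and not the conditions. For AML1-ETO shRNA, 0 of 7 tested members in the authors' deposited table were called by Cuffdiff, where 0.411% of 22406 tested genes were called (0.223% higher and 0.187% lower), and 3 of 7 had an unadjusted p under 0.05 (6.67% of all tested genes). KIT was at -0.96 on the log2 scale in the authors' deposited table (error 0.47, unadjusted p = 0.0341, q = 0.652). FLT3 was at -2.05 (error 0.77, unadjusted p = 0.00875, q = 0.408) in the authors' deposited table, a larger size than in either JMJD1C table. TIE1 was at -1.80 (error 1.03, unadjusted p = 0.0498, q = 0.748) in the authors' deposited table. CSF1R was at 2.56 with an error of 4.00, and IGF1R, FGFR1 and INSR were at -0.04, 0.21 and 0.49 in the authors' deposited table. Whether FLT3 responded differently to JMJD1C and AML1-ETO shRNA was not tested.

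Of the other 49 human receptor tyrosine kinases, 0 were called higher in either JMJD1C table (2.29% and 2.59% of all tested genes). With shRNA63 21 of them were tested and FLT1 was called lower (2.83% of all tested genes were called lower). In the libraries labelled shRNA95 18 were tested, with FLT1, MERTK and STYK1 called lower (1.82% of all tested genes were called lower). FLT1, a VEGF receptor, had 8.41 FPKM with shRNA63 and 15.5 FPKM in the control, and 6.05 FPKM in the libraries labelled shRNA95 and 15.05 FPKM in the control. It was also called in the AML1-ETO comparison, at -5.35 (error 0.84, q = 0.0178) in the authors' deposited table. MERTK, a TAM-family receptor like AXL, had 6.43 FPKM in the libraries labelled shRNA95 and 10.0 FPKM in the control (q = 0.0421), and 6.77 FPKM with shRNA63 and 10.3 FPKM in the control (q = 0.0765). STYK1, a receptor kinase with a very short outer part, had 0.540 FPKM in the libraries labelled shRNA95 and 2.95 FPKM in the control, and 2.49 FPKM with shRNA63 and 3.05 FPKM in the control. DDR1, a collagen receptor, was the other gene of the family called lower in the AML1-ETO table, but its log2 fold change of -4.59 had an error of 15.03 in the authors' deposited table.

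Across the family, 16 of 21 measured genes (tested and at 1 FPKM or more) had negative log2 ratios with shRNA63, with a median of -0.27 against 0.0087 for 14475 measured genes. In the libraries labelled shRNA95 it was 14 of 20, with a median of -0.21 against 0.032 for 14391 measured genes. These counts include the members, which were chosen with earlier results known. Without the members, 11 of 15 ratios were negative with shRNA63 (median -0.27). In the libraries labelled shRNA95 it was then 10 of 15, with a smaller median shift of -0.12. Both comparisons use the same control libraries. These ratios were computed from the group FPKM with 1 FPKM added to each. With no minimum FPKM the median of the family, members included, was -0.15 with shRNA63 and -0.20 in the libraries labelled shRNA95. TIE1 met the minimum with shRNA63 through its control value alone.

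**Figure D3:**
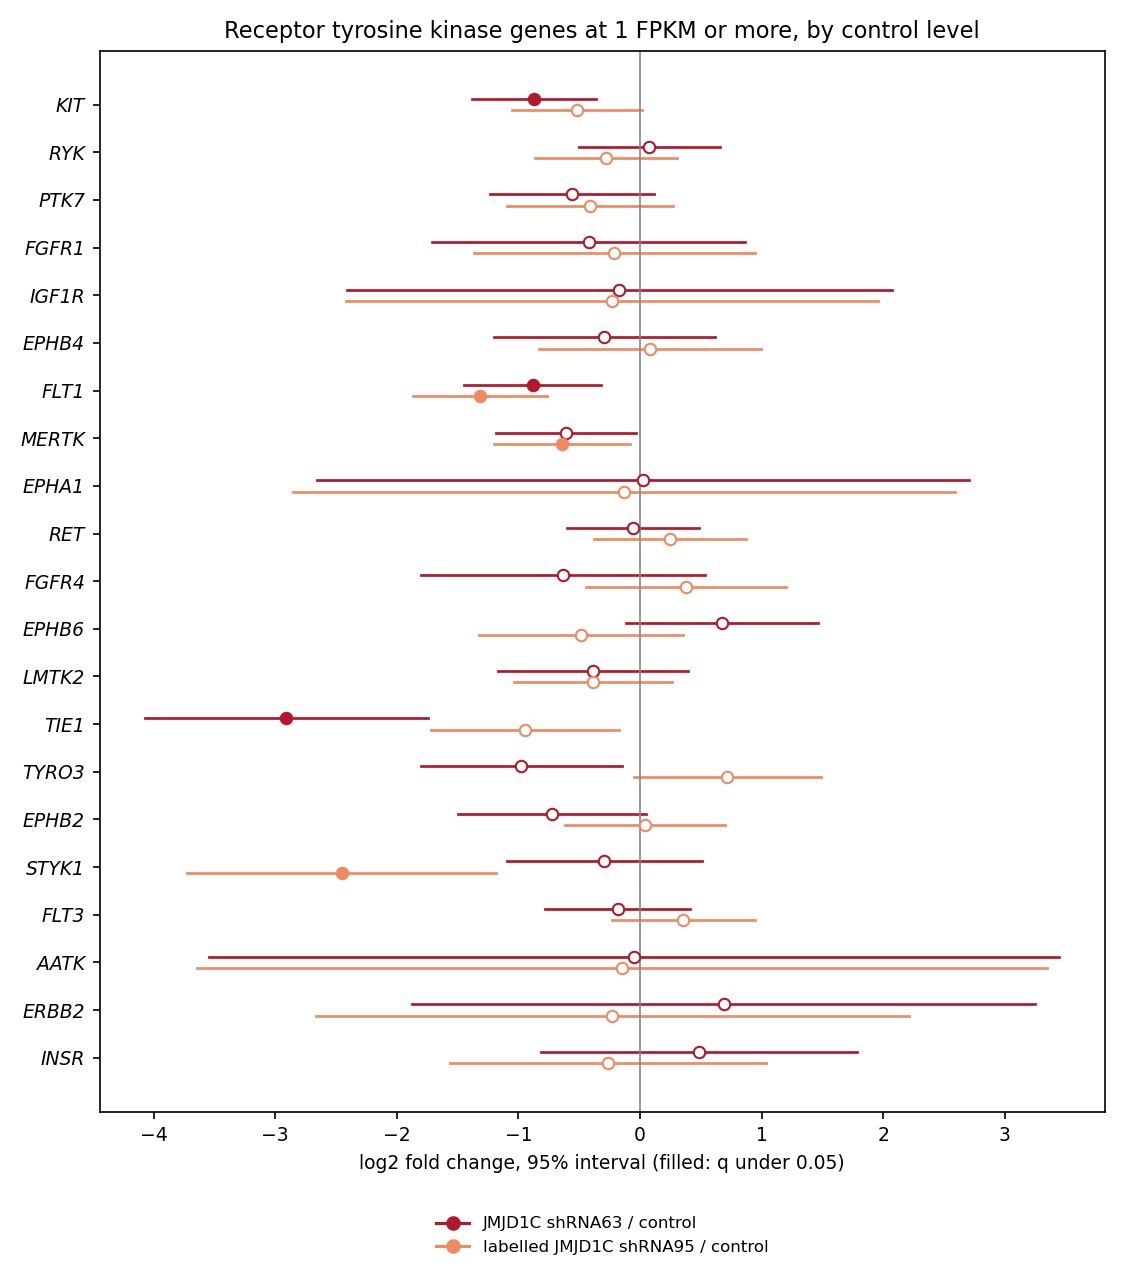
Log2 fold change (x axis) with 95% intervals for the 21 receptor tyrosine kinase genes tested with shRNA63 and at 1 FPKM or more in that table, ordered from the highest control FPKM at the top; the dark red point is JMJD1C shRNA63, the orange point the libraries labelled shRNA95, and filled points have q under 0.05. KIT, FLT1 and TIE1 are filled with shRNA63, and FLT1, MERTK and STYK1 in the libraries labelled shRNA95.

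Ligand genes of the 9 receptors were mostly silent. Of 24, 5 were tested in each JMJD1C table. PROS1, which encodes protein S, a ligand of TAM-family receptors, was called higher with shRNA63 (2.29% of all tested genes). It had 13.9 FPKM with shRNA63 and 7.83 FPKM in the control (log2 fold change 0.83, error 0.37, q = 0.0333 in the authors' deposited table). It was at 8.73 FPKM in the libraries labelled shRNA95 and 7.59 FPKM in the control, without a call. INS and IGF2 were listed at 0 in all groups, and IGF1 was at 0.134 FPKM or less. None of the 12 genes of insulin-like growth factor binding was called in a table; by Cuffdiff 0 of 7 tested passed with shRNA63 (5.12% of all tested genes) and 0 of 6 in the libraries labelled shRNA95 (4.4%), with 2 and 0 at an unadjusted p under 0.05 (13.4% and 12.3% of all tested genes).

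Of 38 adaptors and effectors, 37 were tested, and 2 were called lower with shRNA63 (2.83% of all tested genes) and 1 in the libraries labelled shRNA95 (1.82%). IRS2, a docking protein for INSR and IGF1R, was called in both: it had 0.790 FPKM with shRNA63 and 1.75 FPKM in the control, and 0.917 FPKM in the libraries labelled shRNA95 and 1.70 FPKM in the control. NRAS, a RAS GTPase downstream of these receptors, had 18.6 FPKM with shRNA63 and 47.1 FPKM in the control, and 43.9 FPKM in the libraries labelled shRNA95 and 45.7 FPKM in the control. Its log2 fold changes were -1.34 (error 0.20, q = 0.00214) and -0.06 (error 0.19, q = 0.998) in the authors' deposited tables. In the authors' log2 fold changes the hairpins differed by -1.29 for NRAS (error 0.37), just short of the threshold over all genes (adjusted p = 0.0522).

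Among 26 negative regulators 22 were tested; 2 were called higher with shRNA63 (2.29% of all tested genes), and 3 higher (2.59%) and 1 lower (1.82%) in the libraries labelled shRNA95. PTPRC, the CD45 phosphatase of blood cells, had 23.002 FPKM with shRNA63 and 7.495 FPKM in the control, and 44.7 FPKM in the libraries labelled shRNA95 and 7.26 FPKM in the control. SLA, a Src-like adaptor that promotes the removal of receptors from the surface, had 9.35 FPKM with shRNA63 and 3.45 FPKM in the control, and 6.10 FPKM in the libraries labelled shRNA95 and 3.35 FPKM in the control. Its locus in the tables holds 2 further genes. SLA was also called in the AML1-ETO comparison, at 3.14 (error 0.72, q = 0.0178) in the authors' deposited table. PTPN6, the SHP-1 phosphatase that acts on KIT, had 121 FPKM in the libraries labelled shRNA95 and 41.2 FPKM in the control (q = 0.00216), and 52.1 FPKM with shRNA63 and 42.5 FPKM in the control (q = 0.774). SPRED1, an inhibitor of RAS-ERK signalling, was the gene called lower, with 1.67 FPKM in the libraries labelled shRNA95 and 5.86 FPKM in the control.

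Of 12 genes for receptor shedding and maturation, 10 were tested, and ADAM10 was called lower in both JMJD1C tables (2.83% and 1.82% of all tested genes). This membrane protease, which sheds the outer parts of many receptors, had 39.1 FPKM with shRNA63 and 102 FPKM in the control, and 44.7 FPKM in the libraries labelled shRNA95 and 99.2 FPKM in the control. HSP90B1, a chaperone of the endoplasmic reticulum, was called higher in the libraries labelled shRNA95 (2.59% of all tested genes). It was at 1888 FPKM against 1049 FPKM in the control. Of 9 transcription factors known to act on KIT, 8 were tested in each JMJD1C table. GATA2, an activator of progenitor genes, was called lower in the libraries labelled shRNA95 (1.82% of all tested genes). It was at 19.3 FPKM against 30.3 FPKM in the control (q = 0.0211). With shRNA63 GATA2 was at 21.6 FPKM and in the control at 31.3 FPKM (q = 0.0841), and 0 of the 8 tested factors were called by Cuffdiff there (5.12% of all tested genes), with 3 at an unadjusted p under 0.05 (13.4%). RUNX1, TAL1, LMO2, LDB1 and MYB were not called in either table.

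**Figure D4:**
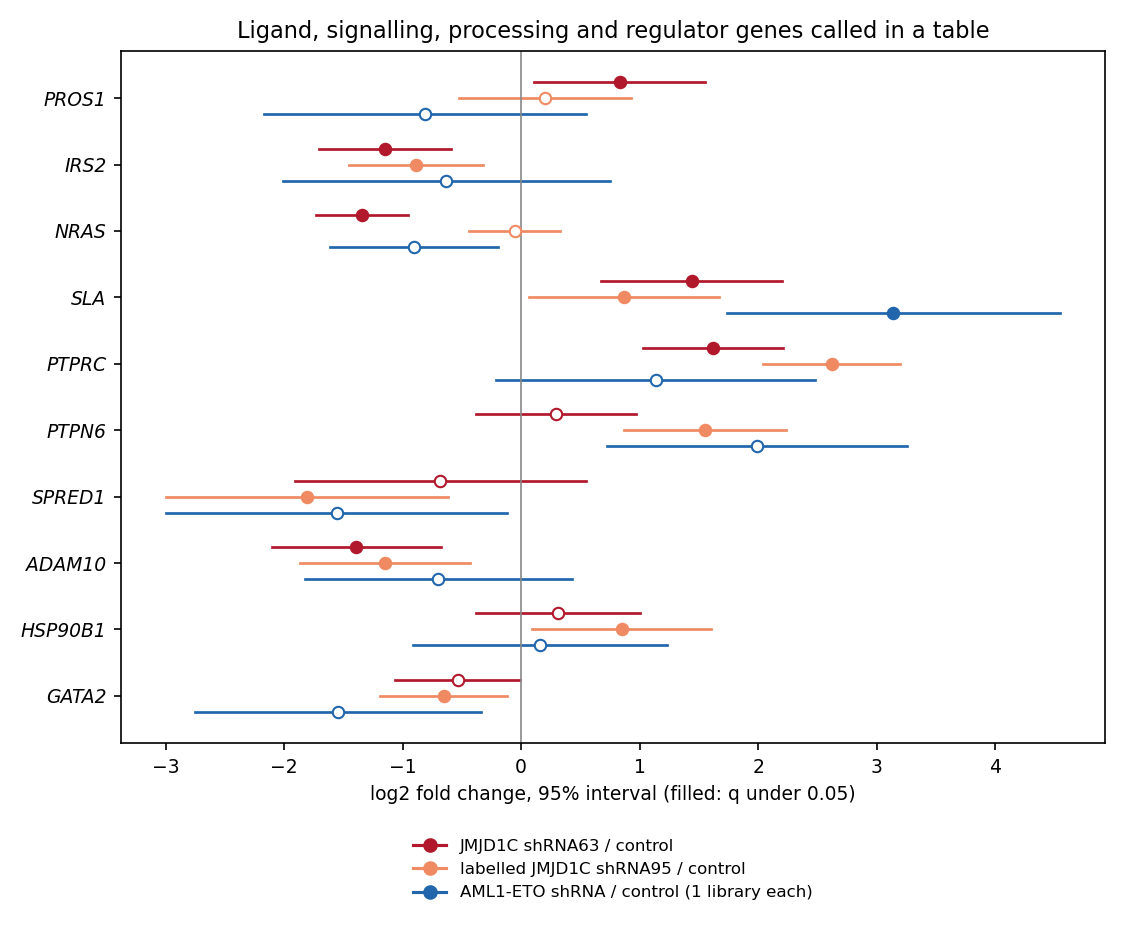
Log2 fold change (x axis) with 95% intervals in the authors' deposited tables for 10 ligand, signalling, processing and regulator genes with a call in at least 1 table; dark red is JMJD1C shRNA63, orange the libraries labelled shRNA95, blue AML1-ETO shRNA with 1 library per group, and filled points have q under 0.05. IRS2 and ADAM10 are filled below 0 and PTPRC and SLA above 0 in both JMJD1C comparisons, while NRAS is filled with shRNA63 at -1.34 and lies at -0.06 in the libraries labelled shRNA95.

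The genes nearest to KIT in their fold changes were RP11-410D17.2, RP11-102F4.3, PLCXD1, ID1 and TTC7B. Nearness was the Euclidean distance over the log2 fold changes of the 3 comparisons among 9973 genes tested in all 3 tables at 5 FPKM or more, and ranged from 0.11 to 0.16 for these 5. Of them RP11-102F4.3 and ID1, an inhibitor of DNA binding, were called lower with shRNA63 (q = 0.00214 and q = 0.00391 in the authors' deposited table), and ID1 also in the libraries labelled shRNA95 (q = 0.0439). The distance is a description over 3 comparisons, of which those of both hairpins share their control.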

How the data were processed

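RNA sequencing data of Kasumi-1 cells were used as 3 deposited gene tables with the columns of a Cuffdiff comparison, per the file headers. TopHat2 2.0.8b, Cuffdiff 2.1.1 and hg19 are named in the submitters' processing notes, with no role or order; no source used here gives the strandedness of the libraries. The deposited FPKM are the authors' group values, 1 per group of 2 libraries, scaled within a table (control values of the shRNA63 table were 1.03 times those of the other table at the median), so levels were compared only within a table. The deposited log2 fold change, the authors' test statistic (a score per gene), and the deposited p-value and q-value were used as given. The 2 FPKM columns of the AML1-ETO table come from another published series and were left out.

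The error of a log2 fold change is its size over the size of the statistic, and 95% intervals are normal. At the median the deposited p-values are smaller than this statistic gives, and these errors are the wider reading. Their normal deviate was 1.37 times the statistic at the median in both JMJD1C tables. TIE1 with shRNA63 went the other way. Its deposited p was 5e-05, the smallest that Cuffdiff gave, and the normal p of its statistic was 9.3e-07. For 17267 genes, shRNA63 minus shRNA95 was tested as the difference of log2 fold changes over the root of the summed squared errors, two-sided normal, Benjamini-Hochberg adjusted, with errors under the 10th percentile raised to it; the shared control was not allowed for, and the calculation was tested on simulated data. No test across libraries was possible. Levels of neighbouring genes were to be set against the errors of their fold changes; this was dropped, since those are not errors of a level. As replicates may be technical, p-values cover no more than their spread. The members, lists and motifs were chosen with earlier results of these data known. All members were named, list genes where called in a table or as defining markers, and the 5 genes nearest to KIT. A gene name with several rows was read from the reference chromosome.

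Depth per library is unknown. Among untested genes the commonest log2 fold change, 0.34 and 0.50, gives shRNA groups 0.79 and 0.71 times the depth of the control if these genes have equal reads. The median error was 1.24 under 1 FPKM, 0.58 for 1 to 5 FPKM and 0.29 above 100 FPKM in the shRNA63 table. Python 3.11.15, pandas 2.3.3 and scipy 1.17.1 were used.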

Additional observations from a re-analysis of the deposited data

How the results depend on the processing

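KIT and TIE1 were called lower with shRNA63 under every alternative run (q under 0.01 or 0.1, adjustment over genes of at least 1 FPKM, and p from the statistic). CSF1R lost its call at q under 0.01 and with p from the statistic, and fell out where 1 FPKM was required. With a pseudocount of 1 FPKM its log2 ratio was 0.51 and that of TIE1 -1.72. No member was called in the libraries labelled shRNA95 or in the AML1-ETO comparison under any of these settings; the 1 FPKM minimum was not applied to the AML1-ETO comparison. At q under 0.01 there were 559 calls with shRNA63 against 936 at q under 0.05, 508 against 793 in the libraries labelled shRNA95, and 0 against 92 in the AML1-ETO comparison, where 1494 genes had an unadjusted p under 0.05 and p from the statistic gave 400 calls. The smallest p that Cuffdiff gave in the AML1-ETO comparison was 5e-05, at q = 0.0178. The setting of q under 0.01 could therefore call no gene there, member or not. The difference between hairpins passed for 145 genes and for 301 with no floor on the errors. It passed for 599 once an assumed part of the errors was taken out for the shared control. That setting, added after seeing the data, alone brought TIE1 past the threshold. The cause of the other shifts was not tested. No paired analysis was possible because the tables hold 1 value per group, and for the same reason no library could be left out. Low level limits CSF1R and INSR, and large errors limit IGF1R and FGFR1.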

Other observations

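An unadjusted p under 0.05 between hairpins (4.81% of all genes) was also seen for TYRO3, STYK1 and EPHB6, receptor genes outside the 9. The progenitor marker CD34 had one as well, and none of these genes passed over all genes. In the authors' log2 fold changes the hairpins differed by 1.69 for the myeloblast gene ELANE (error 0.37), which did pass (adjusted p = 0.00124). TYRO3, a TAM-family receptor chosen after its values were seen, had log2 fold changes in the authors' deposited tables of -0.98 with shRNA63 and 0.72 in the libraries labelled shRNA95, with 2.08 FPKM with shRNA63 and 4.10 FPKM in the control, and 6.54 FPKM in the libraries labelled shRNA95 and 3.97 FPKM in the control. Its difference in the authors' log2 fold changes was -1.69 (error 0.57, unadjusted p = 0.00321, adjusted p = 0.205). STYK1 differed by 2.16 in the authors' log2 fold changes (error 0.77, adjusted p = 0.275). CD34 differed by -1.32 in the authors' log2 fold changes (error 0.39, adjusted p = 0.0769); it was called higher in the libraries labelled shRNA95, at 249 FPKM against 146 FPKM in the control, and lower in the AML1-ETO comparison, at -2.15 (error 0.53) in the authors' deposited table.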
